A study of Drosophila melanogaster with 2 samples.

Results

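Binding of the homeodomain transcription factor Oc (ocelliless, also called orthodenticle) was described at 10 genes that act in neuroblasts, the stem cells of the fly central nervous system. The genes were taken by name. Temporal factors are encoded by nub, pdm2, cas, grh and svp. Factors of asymmetric division and daughter cell fate are encoded by brat, pros, mira and numb. The gene dpn, whose product maintains neuroblast self-renewal, was grouped with the latter as division and fate genes. Oc was measured by ChIP-seq, the sequencing of DNA recovered with a protein from sonicated chromatin, in 2 libraries that form 1 group, named biological replicates 2 and 3. Whole embryos of Drosophila melanogaster, 2 to 14 hours old, were used from 1 transgenic line whose Oc carries GFP at its C terminus, and an antibody to GFP was used. Sex was not recorded. Both libraries share this line, tag and age, no second genotype or treatment was given, and a whole embryo mixes neuroblasts with all other cell types. A peak at these genes was therefore not assigned to a cell type.

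A summit, the position of highest signal in a peak, was given to a protein-coding gene by its nearest start site of transcription. By this rule 113 of 30000 summits of the list called on both libraries together (the pooled list) belonged to the 10 genes. Of these, 21 were in the IDR set, the 5844 peaks that the depositors kept by a threshold on irreproducible discovery rate between replicates. The signal of a peak is the authors' deposited value on a scale that was not stated. It ran from 34.5 to 2816 in the pooled list, and the IDR set held the peaks at 146 and above. These were the 5844 pooled peaks of highest signal, so membership alone did not show that a peak was found in each library. Read depth is unknown. With 1 group there was no comparison between conditions, and the values below are descriptions with no test. Positions are 1-based on dm6.

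Neuroblasts divide asymmetrically, renewing themselves and budding off a ganglion mother cell that divides once more into neurons or glia. As they divide, embryonic neuroblasts of the nerve cord express a series of transcription factors in turn, from Hunchback and Kruppel through the POU factors Nub and Pdm2 to Castor and Grainy head, so that the order of birth sets the fate of the progeny. At each division Miranda carries Prospero and Brat, and Partner of Numb helps carry Numb, into the smaller cell, where these determinants end self-renewal or block Notch signalling. Oc itself is best known as a head gap gene product that patterns the anterior brain and head.

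Oc peaks of the IDR set lay at 7 of the 10 genes, where 21.1% of 13764 protein-coding genes had at least 1. The numbers of IDR summits were 5 at grh, 4 each at brat and numb, 3 at pdm2, 2 each at nub and pros, 1 at cas, and 0 at svp, mira and dpn. The share of 70.0% has a 95% Wilson interval of 39.7 to 89.2%, which covers counting error alone. The strongest peak was at brat (signal 1028, rank 91 in the IDR set), followed by nub (801, rank 176), grh (645, rank 314) and numb (434, rank 732). The remaining 3 genes with an IDR summit had their strongest peak at 217 (cas), 172 (pros) and 169 (pdm2). The median signal of the 21 summits was 193, against 217 for all IDR summits. Of the 21, 3 ranked in the top 500 and 9 in the top 2922 of the IDR set.

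**Figure D1:**
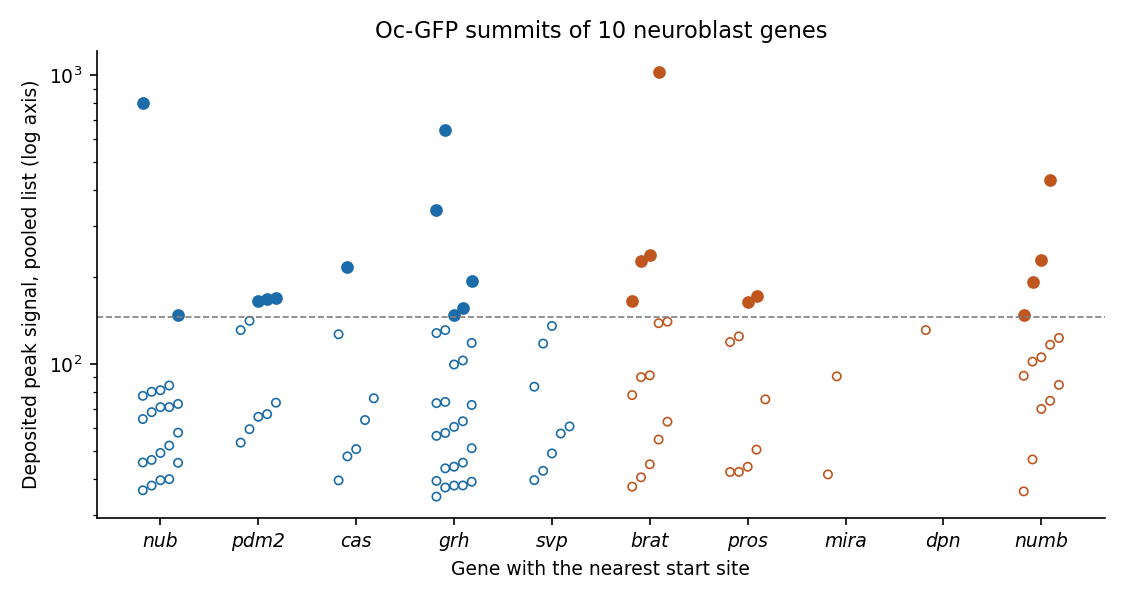
Deposited signal of all 113 pooled summits (vertical log axis) by gene, in blue for temporal factor genes and orange for division and fate genes. Filled points are IDR summits, open points the other pooled summits, and the dashed line is the lowest IDR signal, 146. The main peaks of brat, nub, grh and numb stand highest, followed by a second peak of grh at 341. Open points alone are seen at svp, mira and dpn.

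The 10 genes differ widely in size. The territory of a gene, meaning all bases that are closer to its start sites than to those of other genes, ran from 4.3 kb at dpn and 6.9 kb at mira to 82.7 kb at pros. Among all genes, 13.9% of those with a territory under 10 kb had an IDR summit, and neither mira nor dpn did. From 10 to 30 kb the share over all genes was 40.2%, and 4 of the 5 members in this range (pdm2, cas, brat and numb, not svp) had one. From 30 to 60 kb it was 53.4%, with both nub and grh among them, and above 60 kb it was 42.2%, with pros. Per 100 kb of territory the 10 genes had 7.08 IDR summits and 38.1 pooled summits, against 4.25 and 21.8 over the genome. By gene the IDR density was 14.4 at brat, 13.8 at numb, 13.7 at grh and 12.8 at pdm2. It was 7.47 at cas. Below the genome's value lay nub with 3.99, pros with 2.42, and svp, mira and dpn with 0.0 each. In number alone, 5 or more IDR summits, as at grh, were found at 1.71% of genes, and 4 or more, as at brat and numb, at 2.83%.

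**Figure D2:**
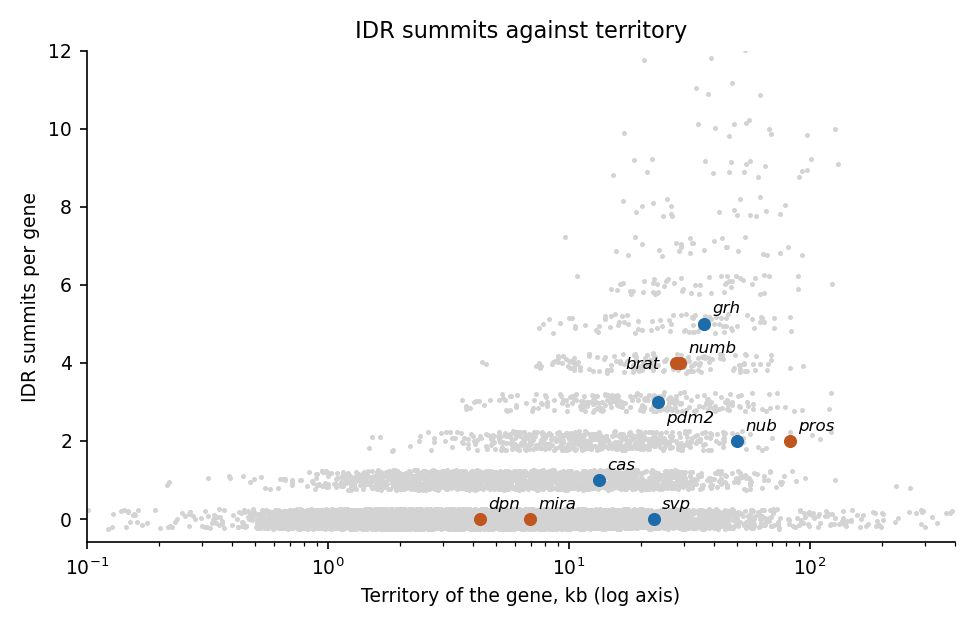
IDR summits per gene (vertical axis) against the territory of the gene in kb (log axis). Grey points are all protein-coding genes, shifted slightly up or down at random to separate them, of which 39 lie outside the axes. Members are coloured as temporal factor genes (blue) and division and fate genes (orange), and grh, brat, numb and pdm2 hold more summits than nub and pros on smaller territories.

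The POU genes nub and pdm2 lie close together on 2L, with the protein-coding gene Ref2 reaching from inside nub to beyond its end. Both POU genes act redundantly in neuroblasts, and their strongest Oc peaks had signals of 801 and 169. At nub (FBgn0085424, 2L 12587625 to 12628135, plus strand) the main peak had its summit at 2L 12587065, 560 bp upstream of the first start site in intergenic sequence. Its signal was 476 in replicate 2 (rank 143) and 312 in replicate 3 (rank 284). The other IDR summit of nub, at 2L 12618078, was weak (pooled signal 148, rank 5693). It lay 267 bp upstream of the second start site, which is 30.7 kb into the gene, and also inside the span of Ref2. Its signal was 78.0 in replicate 2 and 88.5 in replicate 3. The remaining 19 pooled summits of nub had signals of 36.5 to 84.3, far under the IDR set, and 6 of them were found in both replicates. A single upstream peak of nub thus stood apart from the rest.

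At pdm2 (FBgn0004394, 2L 12657165 to 12686306, plus strand) there were 3 IDR summits and no strong one. Their pooled signals were 169, 169 and 165, with ranks of 4610, 4653 and 4816. The first, at 2L 12682164 in an intron, was found in both replicates, at 74.6 in replicate 2 and 107 in replicate 3. The second, at 2L 12656064 and 1101 bp upstream of the first start site, had a signal of 88.1 in replicate 2 and no summit within 100 bp in replicate 3, where the nearest was 1503 bp away with a separate interval. The third, at 2L 12681704 also in an intron, had a signal of 122 in replicate 2, and the nearest summit in replicate 3 was 102 bp away with a signal of 43.1. Of the 3 peaks at pdm2, therefore, 1 met the distance of 100 bp in both libraries. Just below the IDR set pdm2 had a summit 121 bp upstream of start site 4 (2L 12678483, signal 141) and an intronic summit (signal 131), and both were found in both replicates.

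Castor is the zinc finger factor that follows the POU factors in the series. The cas gene (FBgn0004878, 3R 5712975 to 5716805, minus strand) is short, and its 7 pooled summits all lay upstream of it, from 2596 to 8123 bp from its single start site. The 1 IDR summit, at 3R 5723294 and 6489 bp upstream, had a signal of 110 in replicate 2 (rank 3335) and 105 in replicate 3 (rank 3019). A second summit 203 bp further upstream (signal 127) was not in the IDR set, and its interval overlapped the first. The start site of an annotated long noncoding RNA, CR44924, lay nearer to the IDR summit than that of cas.

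The sequence around the main summits of nub and cas is shown because it can be read against the site of Oc. Oc has a lysine at the position of its homeodomain that selects TAATCC, and TAAGCC is a related site. Neither was found within 50 bp of these summits. The nub window, chr2L:12587015-12587115, holds GAGAGAG (in capitals), the site of GAGA factor, 12 bp from the summit, and the cas window, chr3R:5723244-5723344, holds none of the 11 motifs searched. Both are printed 5′ to 3′ on the plus strand from the RefSeq dm6 sequence. A TAATCC lay further out at both, 82 bp from the nub summit and 78 bp from the cas summit, each on the minus strand.
nub: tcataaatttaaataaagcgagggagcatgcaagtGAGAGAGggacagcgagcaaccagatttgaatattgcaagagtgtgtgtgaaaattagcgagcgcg
cas: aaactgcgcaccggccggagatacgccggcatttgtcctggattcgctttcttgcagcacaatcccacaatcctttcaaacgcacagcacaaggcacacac

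Of the 10 genes, grh had the most Oc summits. It encodes Grainy head, a late temporal factor of neuroblasts that also acts in epidermal barrier formation. The gene (FBgn0259211, 2R 17801132 to 17842820, plus strand) had 27 pooled summits on a territory of 36.5 kb, the highest density of the 10 genes at 74.0 per 100 kb. All 5 IDR summits lay within the gene and all 5 were found in both replicates. The strongest, at 2R 17804970 in an intron 2103 bp downstream of the third start site, had a signal of 303 in replicate 2 (rank 428) and 311 in replicate 3 (rank 288). A neighbouring summit 199 bp away had a signal of 171 in replicate 2 and 154 in replicate 3, and the intervals of these peaks overlapped, so they were not independent. Replicates stood close together at both.

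The other 3 IDR summits of grh were weaker. At 2R 17813798, 546 bp upstream of the fourth start site, the signal was 98.6 in replicate 2 and 93.1 in replicate 3. At 2R 17801851, 395 bp upstream of the second start site, it was 86.1 and 79.5. At 2R 17825741, 2176 bp downstream of the fifth start site, it was 99.3 and 54.3, with ranks of 4015 and 9100, the widest gap between replicates among the 5 IDR summits of grh. The 22 summits below the IDR set reached from 34.7 to 131, with a median of 57.0, and 8 of them were found in both replicates.

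The gene svp encodes a nuclear receptor of the COUP-TF family that ends the Hunchback window in neuroblasts. It (FBgn0003651, 3R 12258737 to 12302785, plus strand) had 8 pooled summits and no IDR summit. The strongest, at 3R 12256773 and 1964 bp upstream of the first start site, had a pooled signal of 135 and rank 6535, below the end of the IDR set at rank 5844. Its signal was 60.3 in replicate 2 (rank 8916) and 78.6 in replicate 3 (rank 5162). The next, at 3R 12280969 and 141 bp upstream of the second start site, had a pooled signal of 118, and here replicate 2 was the higher with 83.1 (rank 5432) against 38.4 (rank 14063). Each library alone thus ranked 1 svp summit among its 5844 strongest, at different places. The first start site of svp is shared with CG44037, and summits nearest to it were counted for svp by the order of gene identifiers.

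**Figure D3:**
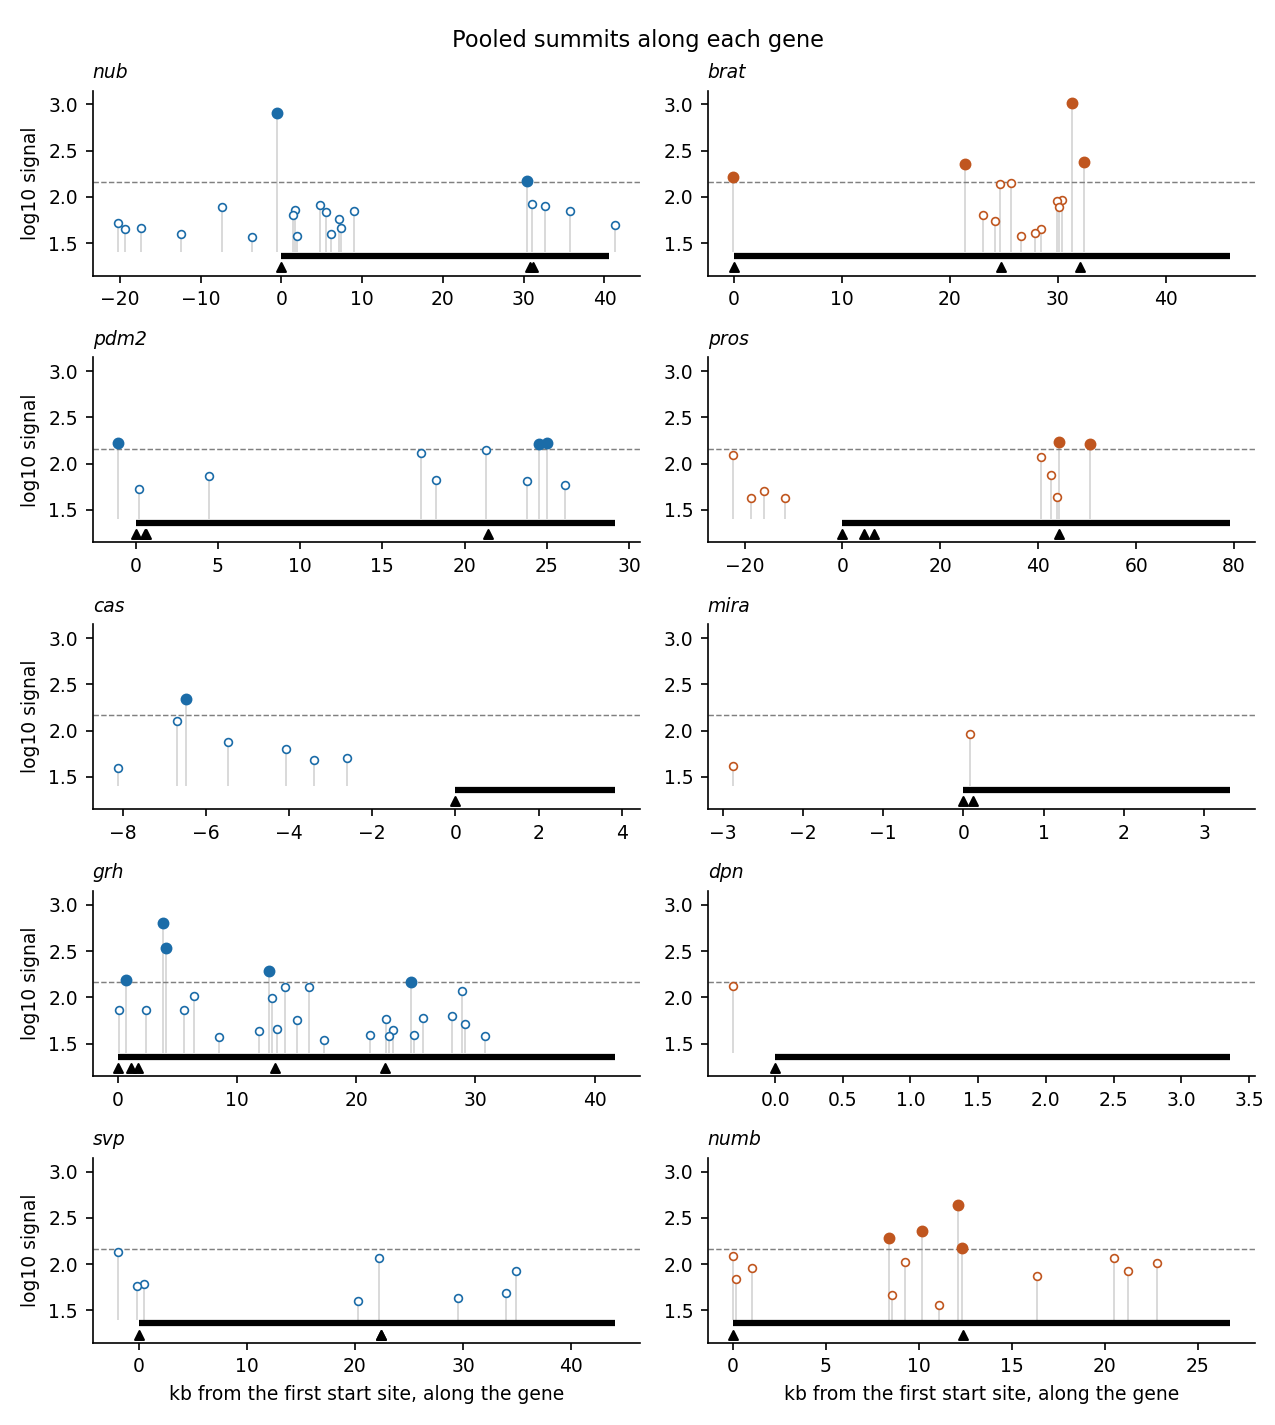
Pooled summits of each gene by their log10 signal (vertical axis) and distance in kb from the gene's first start site, with positive values running along the gene. Filled points are IDR summits, open points the others, the black bar is the gene, triangles are its annotated start sites, and the dashed line is the lowest IDR signal. The highest peaks of numb, brat and pros lie near a start site inside the gene, and those of cas lie upstream.

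Prospero is a homeodomain factor that enters the nucleus of the ganglion mother cell and ends proliferation there, and Miranda is the adaptor that carries it. At pros (FBgn0004595, 3R 11328480 to 11407627, plus strand) both IDR summits were weak and lay 44.3 kb and 50.5 kb into the gene. The promoter summit at 3R 11372741, 47 bp upstream of the fourth start site, had a signal of 86.6 in replicate 2 (rank 5043) and 70.5 in replicate 3 (rank 6196). The intronic summit at 3R 11378952, 6164 bp downstream of the same start site, had 83.5 (rank 5392) and 75.1 (rank 5590). The first 3 start sites of pros, within 6.5 kb of each other, had no IDR summit nearest to them. At mira (FBgn0021776, 3R 19931799 to 19935120, minus strand) the highest of 2 pooled summits was a promoter summit at 3R 19935036 with a signal of 90.6 and rank 11274. It was found in both replicates at like levels, 47.2 and 44.1, and at this level it was far below the IDR set.

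The genes of the determinants Brat and Numb carried stronger peaks, each with its main summit upstream of a start site inside the gene. Brat is a TRIM-NHL protein that represses translation of its target mRNAs in the ganglion mother cell. At brat (FBgn0010300, 2L 19133816 to 19179758, plus strand) the main summit, at 2L 19165166, lay in an intron 701 bp upstream of the third start site, 31.4 kb from the first. Its signal was 526 in replicate 2 (rank 108) and 507 in replicate 3 (rank 83). The summit at 2L 19166293, 426 bp downstream of that start site, had 118 and 126, and an intronic summit at 2L 19155239 had 99.2 and 130. The weakest, at 2L 19133720, lay 96 bp upstream of the first start site and 237 bp from that of Polr1D, whose span holds it. It was less even, at 98.3 in replicate 2 (rank 4088) and 56.3 in replicate 3 (rank 8679). All 4 were found in both replicates. Just below the IDR set were a summit 1000 bp downstream of the second start site (140) and another 41 bp upstream of it (139). The latter was uneven, at 30.3 in replicate 2 (rank 20916) and 95.8 in replicate 3 (rank 3592), a centred log2 ratio of 1.85.

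Numb is a membrane-associated inhibitor of Notch that makes the daughters of a division differ. All 4 IDR summits of numb (FBgn0002973, 2L 9437469 to 9464184, plus strand) lay nearest to its second start site, 12.4 kb into the gene, and upstream of it. The main summit at 2L 9449568, 262 bp upstream, had a signal of 263 in replicate 2 (rank 589) and 170 in replicate 3 (rank 1080). A shoulder at 2L 9449767, 199 bp from it with an overlapping interval, had a pooled signal of 148 and 56.5 in replicate 3. In replicate 2 its nearest summit was 117 bp away and was the one that matched the main summit. The intronic summits at 2L 9447644 and 2L 9445859 had pooled signals of 229 and 193 and were found in both replicates. At the first start site of numb the strongest summit lay 2 bp downstream with a pooled signal of 123, below the IDR set.

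The windows of brat and numb are shown because brat holds the strongest peak of the 10 genes and the numb windows are the member IDR windows with a TAATCC or TAAGCC site. Capitals mark motif matches, and all windows are on the plus strand of dm6. The brat window, chr2L:19165116-19165216, is AT-rich and holds no TAATCC or TAAGCC but ATGCAAAT on its minus strand, the octamer known as a site of POU factors. The first numb window, chr2L:9449518-9449618, is that of the main summit and holds TAAGCC on its minus strand, 22 bp from the summit. The second, chr2L:9445809-9445909, is that of the summit at 2L 9445859 and holds TAATCC 8 bp from the summit, followed by TAATTG, a site of other homeodomains.
brat: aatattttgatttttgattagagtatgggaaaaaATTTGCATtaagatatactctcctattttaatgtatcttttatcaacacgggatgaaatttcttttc
numb, main summit: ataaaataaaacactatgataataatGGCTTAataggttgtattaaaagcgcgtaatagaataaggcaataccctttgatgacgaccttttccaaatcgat
numb, intronic summit: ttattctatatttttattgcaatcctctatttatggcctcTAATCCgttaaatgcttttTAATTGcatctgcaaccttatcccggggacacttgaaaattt

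The smallest record was that of dpn, which encodes Deadpan, a bHLH repressor that maintains neuroblast self-renewal. This short gene (FBgn0010109, 2R 8228971 to 8232330, minus strand) had a single pooled summit, at 2R 8232644 and 314 bp upstream of its start site. Its pooled signal was 131 (rank 6849), below the IDR set. Replicate 3 ranked it at 5497 with a signal of 75.8, and replicate 2 at 13767 with 43.4. A TAATCC site lay 12 bp from this summit on the minus strand.

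The counts of TAATCC and TAAGCC at the member IDR summits depended on the width searched. Within 100 bp of the summit they were at 3 and 4 of the 21, where all IDR summits had 13.2% and 14.7%. Each was found on either strand within 50 bp of 1 of the 21 summits, or 4.76% with a 95% Wilson interval of 0.846 to 22.7%, where 8.3% of all IDR summits had TAATCC and 8.69% had TAAGCC. The interval includes both background shares but treats the summits as independent, although some peaks overlapped and both sites were at numb. A difference from the whole set was not tested. In equally wide flanking windows, 500 bp to the left and right of the summit, TAATCC was in 4.76% and TAAGCC in 0.0% of 42 member flanks, against 3.41% and 3.95% of all flanks. Among the 92 member summits below the IDR set 12 held at least 1 of these 2 sites (13.0%), near the 11% of all summits below the IDR set. The one with the highest signal was that of dpn. The other TAATCC windows there were at pdm2, grh, svp and brat, with signals of 44.9 to 73.9.

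Of the other motifs, GAGAGAG was in 3 member IDR windows (14.3%, 4.98 to 34.6%), at nub, pdm2 and grh, against 2.89% of all IDR windows. CAGCTG, an E-box of proneural type, was in 2 windows, at brat and numb (9.52% against 4.3%). TAATTA was in 1 window, at grh, TAATTG in 1, at numb, and ATGCAAAT in 1, at brat, where all IDR windows had 7.68%, 8.32% and 2.33%. The Zelda site CAGGTAG, the Grainy head site AACCGGTT, the E-box CACGTG and the DREF site TATCGATA were in 0 of 21 windows, and all IDR windows had 0.376%, 0.154%, 1.16% and 0.753%. A count of 0 in 21 has an upper Wilson limit of 15.5%. Base composition varied widely, from 23.8% GC at the main grh summit and 24.8% at that of brat to 65.3% at the pros promoter. Their median of 44.6% compares with 40.6% over all IDR windows. GC content was below that of the flanks at 10 of the 21 summits and above it at 11, against 3073 of 5844 below in the whole set.

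The IDR summits were also described by class and by their nearest start site. By class, 11 of the 21 were in introns (52.4%, 32.4 to 71.7%), an interval that includes the 42.4% of all IDR summits. At promoters, within 500 bp of a start site of any annotated gene, were 7 (33.3%, 17.2 to 54.6%, against 34.1%). In intergenic sequence were 3 (14.3% against 20.7%). None lay in an exon outside a promoter, where the whole set had 0.205%, 0.684%, 0.565% and 1.28% in coding exons, 5' UTRs, 3' UTRs and other exons. With 17 summits inside the span of their gene and 4 upstream (at nub, pdm2, cas and brat), none lay downstream of its gene. In genes with start sites over 1 kb apart, 17 of 20 member IDR summits were nearest to a start site over 1 kb from the first (85.0%), and over all genes of this kind 62.9% of 2248 IDR summits were. All 5 of grh and all 4 of numb were among the 17. The median distance to the nearest start site was 1101 bp, with a range of 47 to 6489 bp, against a median of 1904.5 bp for all IDR summits. Upstream of that start site lay 14 of the 21 (66.7%, against 52.4% of all).

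The libraries gave like values at the member IDR summits that were found in both replicate lists. Of the 21 IDR summits 18 had a summit within 100 bp in both replicate lists (85.7%, 65.4 to 95%), where 93.6% of all IDR summits did, and the exceptions were 2 at pdm2 and the shoulder at numb. The IDR set was derived from these lists, so this share is partly built in. After centring on the median of all IDR summits, the log2 ratio of replicate 3 to replicate 2 ran from -0.68 at the grh summit 2R 17825741 to 0.71 at the pdm2 summit 2L 12682164, with an SD of 0.402 over the 18. Over all 5472 IDR summits found in both lists the SD was 0.504 and 95% lay between -1.07 and 0.96. None of the 18 fell outside that range. The unmatched member summits have no ratio here. At the pdm2 summit 2L 12681704 the signal was 122 in replicate 2, and 43.1 at the nearest summit of replicate 3. Of the 92 member summits below the IDR set 42 were found in both lists (45.7%), close to the 45.1% of all such summits. Of all member pooled summits 18.6% (12.5 to 26.7%) were in the IDR set, where 19.5% of the pooled list was.

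**Figure D4:**
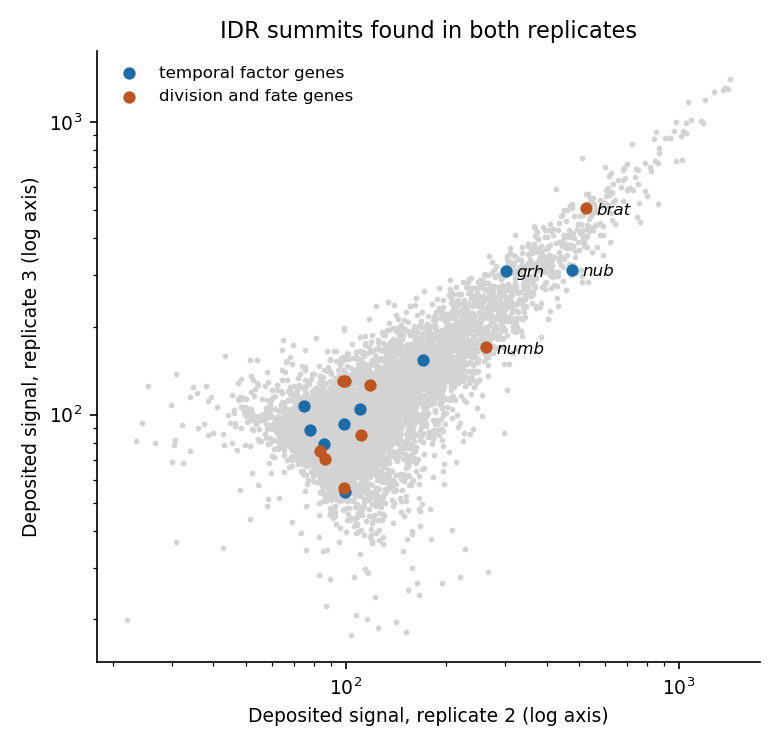
Deposited signal in replicate 3 against replicate 2 (both log axes) for the 5472 IDR summits found in both lists (grey) and the 18 of the member genes (blue, temporal factor genes; orange, division and fate genes). The main summits of brat, nub, grh and numb lie high in both libraries, and all 18 lie within the range that holds 95% of the grey points' ratios.

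The 5 temporal genes had 11 IDR summits of 73 pooled (15.1%), with a median IDR signal of 169, and the 5 division and fate genes had 10 of 40 (25%), with a median of 210. Their densities of IDR summits were 7.54 and 6.64 per 100 kb of territory, while those of pooled summits were 50 and 26.5. Of the 150.7 kb of the division and fate genes, 82.7 kb belonged to pros, with 2.42 IDR and 10.9 pooled summits per 100 kb. The densities of this group thus depend strongly on pros. Differences between the groups were not tested. Below the IDR set 24 of 62 summits of the temporal genes and 18 of 30 of the division genes were found in both replicates.

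Among 47 other neuroblast genes 31 had an IDR summit (66.0%), with a median of 1 summit per gene, where the 10 genes had a median of 2 and all protein-coding genes a median of 0 and a share of 21.1%. A list of other temporal genes had IDR summits at 12 of 14, led by hth with 18, chinmo with 12 (highest signal 806), opa with 7 and D with 6. In this list hb and Syp had no IDR summit. Of the embryonic nerve cord series named above it holds hb and Kr alone, Kr with 1 IDR summit. Genes of neuroblast identity had them at 7 of 10, among them klu with 8. A list of cell cycle and neuronal differentiation genes had them at 6 of 8. Among these were the neuronal genes tap with 5 and elav with 3, whose promoter peak had a signal of 1091. Of the cell cycle genes trbl had 4, CycE and dap 1 each, and stg and fzr 0. The machinery of asymmetric division had IDR summits at 6 of 15 genes (40.0%), the lowest share of these 4 lists and above that of all genes. In this list scrib had 4 IDR summits, baz 3, insc, Galphai and dlg1 2 each, and aPKC 1. The genes pins, stau and N had pooled summits alone, while par-6, mud, l(2)gl, pon, aurA and polo had no pooled summit. These lists were compiled from knowledge of the genes, with earlier results of these data known, and differ in territory, which was not adjusted for.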

How the data were processed

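Positions of binding were taken from 4 deposited peak lists, 1 for each of 2 libraries, 1 from the pooled alignments and the IDR set derived from these 3, all on dm6. Per the deposited descriptions, 1 control alignment served every call. The deposited signal value of each peak is on a scale that was not stated and was used to rank peaks within a list. Deposited q-values, given as -log10, tied at the highest score, 3.92, for 11 of the 21 member summits and were not used to rank peaks. The aligner, peak caller and IDR threshold are not given in the sources used here.

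The summit is the interval start plus the deposited offset. Genes come from the Ensembl 115 annotation and sequence from RefSeq release 6, both dm6. Ties between start sites went to the lower gene identifier. Of 13968 protein-coding genes 13764 had a territory. A replicate rank is that of the nearest summit within 100 bp. Promoter took precedence over exon, and exon over intron, in classing a summit. Python 3.11.15, numpy 2.4.6 and pandas 2.3.3 were used, and the functions were tested on simulated data. Each of the 10 genes is named. The members, lists and motifs were chosen with earlier results of these data known. No test was run, since there is 1 group.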

Additional observations from a re-analysis of the deposited data

How the results depend on the processing

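Of 22 alternative values, 17 stayed within 1.5 times the reported count. Taking the upper part of the IDR set with the highest signal left 9 member summits at 5 genes (nub, cas, grh, brat and numb), by construction of the stricter set. Promoters of 250 bp held 4 and promoters of 1000 bp held 11 of the 21 summits, where all IDR summits moved to 26.5% and 44.5%. Within 100 bp of the summit TAATCC was at 3 and TAAGCC at 4 of the 21, where all IDR summits had 13.2% and 14.7%. The low shares within 50 bp thus did not hold at this width. Leaving out replicate 2 or 3 and taking the 5844 strongest peaks of the other gave 20 to 21 summits at 8 to 9 genes. Of all protein-coding genes, 21.0% had such a peak in replicate 2 and 21.7% in replicate 3. For the other gene counts of this section the share over all genes is not given. In both cases svp gained a summit, and dpn gained one in replicate 3 alone. With start sites of every biotype 19 summits at 6 genes remained, since those of cas and of a promoter of grh lay nearer to noncoding genes. By gene span there were 19 summits at 6 genes, without cas. Joining summits within 250 bp, chosen after seeing the data, left 19. No paired analysis was possible because there is a single group. Unknown read depth limits what can be said of genes without an IDR summit.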
